A study of Mus musculus with 12 samples.

Results

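Described here are 9 genes known from the pregranulosa cells of the fetal ovary, chosen by name: the secreted signals Rspo1, Wnt4, Bmp2 and Fst, the receptor Lgr5, and the transcriptional regulators Foxl2, Irx3, Nr0b1 and Runx1. All were found on the arrays, as 9 of 29182 genes, by 10 probes, since Runx1 had 2. RNA of mouse gonads at E14.5 was labelled with Cy3 and hybridised to single-colour Agilent arrays, on which the intensity of a spot reports the RNA bound to its probe. The study asked what happens to XX germ cells without Smad4 and Stra8. The genes of supporting cells bear on whether the somatic cells around those germ cells were altered as well.

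Pregranulosa cells are the supporting cells of the fetal ovary, the counterparts of the Sertoli cells of the fetal testis. They differentiate under RSPO1 and WNT4, secreted proteins that stabilise β-catenin, and under FOXL2, a forkhead transcription factor that keeps ovarian supporting cells from taking on Sertoli cell traits later in life. In the fetal testis SRY and SOX9 direct the same precursors to the Sertoli cell fate, and the ovarian programme is held down there. Pregranulosa cells lie next to the germ cells and are a source of BMP2 and follistatin, which act on the signalling that SMAD4, the common partner of the receptor-activated SMADs, carries into the nucleus.

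There were 12 arrays, 3 in each of 4 groups, each of RNA from 1 pair of gonads. Control testes were Smad4Flox/+ StellaMerCreMer Stra8+/-. Control ovary 1 had that same genotype, control ovary 2 was Smad4Flox/+ Stra8+/- without the Cre transgene, and control ovary 3 was Smad4Flox/Flox Stra8+/- without it. Smad4 (Stella) ovaries were Smad4flox/floxMerCreMer Stra8+/−, and DKO ovaries were Smad4flox/floxMerCreMer Stra8−/−. Thus every sample carried at least 1 floxed Smad4 allele and at least 1 null Stra8 allele, and every pregnant mouse had received tamoxifen at E9.5 and E10.5, on a mixed background. The Cre recombinase is driven by the element of Stella, a germ cell gene, and its efficiency is described as variable, so that the loss of Smad4 was directed to germ cells and need not have reached all of them, whereas Stra8 was null in every cell of the DKO. Whole gonads were used, in which fewer cells of a type and less RNA per cell cannot be told apart.

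The RNA of the targeted genes was examined first. The relative level of Stra8 was 6.71, 6.16 and 6.46 in control ovaries 1, 2 and 3, 6.34, 6.41 and 6.28 for Smad4 (Stella) and 5.61, 5.28 and 5.38 for DKO ovaries. Levels are log2 intensities from which the 75th percentile of the array was subtracted, so that 0 is that percentile and a step of 1 is a doubling. Stra8 was 2.02-fold lower in DKO than in control ovaries (limma, adjusted p = 0.00271), and whether its probe lies outside the disrupted part is not given in the sources used here. Smad4 RNA did not pass the test in any comparison of ovaries, with a log2 difference of -0.13 ± 0.14 (SE, n = 3 per group) between DKO and control ovaries in whole gonads.

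The 75th percentile of intensity ranged from 476 to 997 and the share of spots well above background from 59.3% in control ovary 1 to 71.0% in control ovary 2. Replicates correlated with r between 0.975 and 0.994 over genes. The arrays lay on 3 slides, of which the first held the control testes and control ovary 1, the second control ovaries 2 and 3 and DKO ovaries 1 and 2, and the third the Smad4 (Stella) ovaries and DKO ovary 3. Each array had its own sample, but litters are not given. The p-values set a group difference against the spread of arrays within the 4 groups. Neither litters nor slides were in the main model, so it does not separate their effects from a group difference. The Sertoli cell marker Amh was not well above background on all arrays of any ovary group, whereas the germ cell markers Ddx4 and Dazl were above it on all 12 arrays.

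Shown are the probes whose letters are recognised as protein-coding sequence of their gene, since what each measures depends on where it sits in the transcript. This was not checked against an annotation of mm9, and the place of the other probes within their transcripts is not given. Each is a 60-base oligonucleotide printed 5′ to 3′ as designed, all in lower case, with no part marked.
Foxl2, chr9:98856287-98856346 (plus strand): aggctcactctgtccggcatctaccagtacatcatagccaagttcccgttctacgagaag
Wnt4, chr4:136851690-136852258 (plus strand): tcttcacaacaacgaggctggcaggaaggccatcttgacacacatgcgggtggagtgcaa
Fst, chr13:115244692-115245364 (minus strand): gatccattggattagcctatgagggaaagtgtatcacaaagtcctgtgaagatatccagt
Bmp2, chr2:133386981-133387040 (plus strand): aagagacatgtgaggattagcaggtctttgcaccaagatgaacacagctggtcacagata
Runx1, chr16:92614003-92644455 (minus strand): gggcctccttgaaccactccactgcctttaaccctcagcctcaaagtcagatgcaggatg
Coordinates are those of the array annotation on mm9. The letters of the Foxl2 probe encode part of the forkhead domain, which binds DNA. The Wnt4, Fst and Runx1 probes span 569, 673 and 30453 bases of the genome with 60 bases of sequence, so they cross an exon junction. The other probes lie at chr4:124686270-124686329 for Rspo1, chrX:83441169-83441228 for Nr0b1, chr8:94322759-94322818 for Irx3, chr10:114888847-114888906 for Lgr5 and chr16:92604413-92604472 for the other probe of Runx1. Bmp2 was spotted 10 times per array and the others once.

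All 9 genes were lower in control testes than in control ovaries, and none of them passed the test between any 2 of the 3 ovary groups. In control testes 9 of 9 were called lower, against a background of 16.8% of the 18844 genes tested (17.2% were called higher and 34.0% in either direction), where a call is an adjusted p under 0.05 in limma with a change of at least 1.5-fold. The arrays of control testes and control ovaries did not overlap for any of the 9, which was the case for 58.3% of all genes. Runx1 enters these counts as the mean of 2 probes. By its probe across an exon junction alone the groups overlapped and it was not called (limma, adjusted p = 0.183). With normexp background correction 7 of 9 were called, without Foxl2 and Runx1, where 14.2% of all genes were called. The genes were chosen as ovarian supporting cell genes, so that this direction is a property of the choice. Between Smad4 (Stella) and control ovaries 0 of 9 were called, where 0.271% of all genes were. Between DKO and control ovaries 0 of 9 were called, where 14.7% of all genes were (6.69% higher and 7.98% lower), and between DKO and Smad4 (Stella) ovaries 0 of 9, where 8.45% were (4.38% higher and 4.06% lower).

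**Figure D1:**
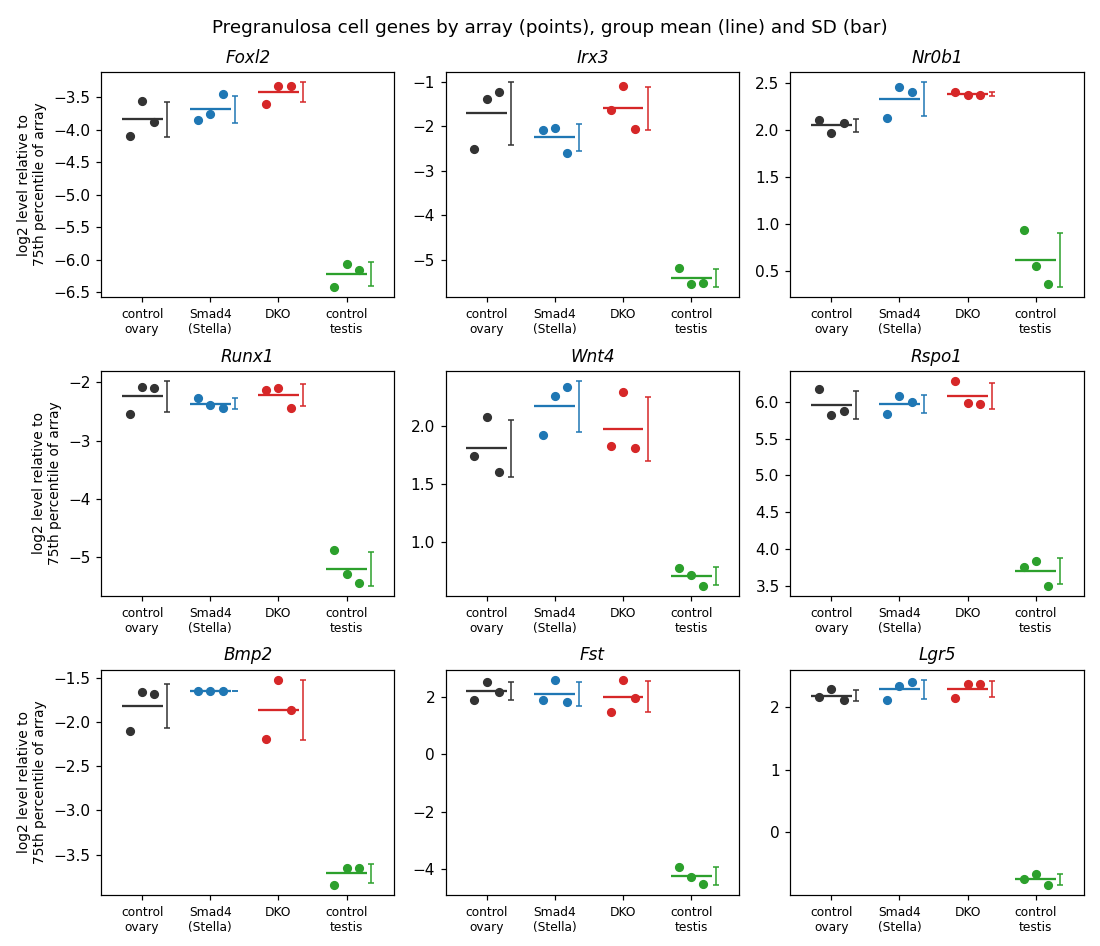
Relative log2 level of each gene (vertical axis, scaled separately for each gene) on each array (points) of the 4 groups, with the group mean as a line and the SD as a bar. In every panel the 3 control testes lie below all 9 ovaries, and the 3 ovary groups lie at similar heights.

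RSPO1 is a secreted protein that prolongs WNT signalling by protecting the WNT receptors from degradation. Its relative level was 6.17, 5.83 and 5.87 for control, 5.84, 6.07 and 5.99 for Smad4 (Stella) and 6.28, 5.98 and 5.97 for DKO ovaries, against 3.76, 3.83 and 3.50 for testes. Control ovary 1 and DKO ovary 1 were the highest of their groups, and the ovary groups overlapped. Rspo1 was 4.79-fold lower in control testes than in control ovaries (limma, adjusted p = 7.86e-07). The difference between DKO and control ovaries was 0.12 ± 0.14 on the log2 scale (SE, n = 3 per group), with a 95% interval of -0.19 to 0.43.

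WNT4 is the ligand whose loss partly masculinises the XX gonad. The relative level of Wnt4 was 1.75, 2.08 and 1.60 for control, 1.92, 2.26 and 2.34 for Smad4 (Stella) and 1.82, 2.30 and 1.81 for DKO ovaries, against 0.77, 0.71 and 0.61 for testes. Wnt4 had the smallest sex difference of the 9, at 2.16-fold lower in testes (limma, adjusted p = 0.000415). The mean in Smad4 (Stella) ovaries was 0.36 ± 0.17 above that of control ovaries on the log2 scale, with a 95% interval of -0.020 to 0.75, and missed the threshold (limma, adjusted p = 0.273).

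LGR5 is a receptor for R-spondins that marks the supporting cells of the ovarian cortex. The relative level of Lgr5 was 2.15, 2.27 and 2.11 for control, 2.11, 2.32 and 2.40 for Smad4 (Stella) and 2.14, 2.36 and 2.35 for DKO ovaries, against -0.74, -0.66 and -0.83 for testes. It was the steadiest of the 9 genes among replicates, with a within-group SD of 0.12 against a median of 0.21 over all genes. Lgr5 was 7.57-fold lower in testes (limma, adjusted p = 3.25e-08). Its 95% interval between DKO and control ovaries, -0.13 to 0.35 on the log2 scale, was the narrowest of the set.

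Follistatin, encoded by Fst, binds activins and some BMPs outside the cell and blocks them. The relative level of Fst was 1.90, 2.52 and 2.18 for control, 1.89, 2.60 and 1.84 for Smad4 (Stella) and 1.48, 2.57 and 1.96 for DKO ovaries, against -3.92, -4.26 and -4.54 for testes. Fst had the largest sex difference of the 9 genes, 86.9-fold lower in testes (limma, adjusted p = 1.42e-07), and 26.5-fold with normexp correction, which subtracts a fitted background and adds an offset of 50 to each intensity. Replicate ovaries differed by up to 1.09 on the log2 scale in the DKO. The interval between DKO and control ovaries ran from -0.87 to 0.47.

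BMP2 is a ligand of the BMP receptors, made by ovarian supporting cells. Its level was -2.10, -1.66 and -1.68 for control, -1.64, -1.65 and -1.65 for Smad4 (Stella) and -2.20, -1.52 and -1.87 for DKO ovaries, against -3.84, -3.65 and -3.65 for testes. The Smad4 (Stella) ovaries lay within 0.0036 of each other and just above every control ovary, so that these groups did not overlap, as was the case for 28.1% of all genes. The difference was 0.17 ± 0.17 on the log2 scale (limma, adjusted p = 0.602). Bmp2 was 3.73-fold lower in control testes than in control ovaries (limma, adjusted p = 9.93e-06), and 1.93-fold with normexp correction.

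Foxl2 gave a dim signal that was well above background on all 9 ovary arrays and on none of the testis arrays. Its relative level was -4.09, -3.55 and -3.88 for control, -3.84, -3.76 and -3.45 for Smad4 (Stella) and -3.59, -3.33 and -3.33 for DKO ovaries, against -6.43, -6.06 and -6.16 for testes. Relative to testes Foxl2 was higher by at least 3.97-fold in control (limma, adjusted p = 1.78e-06), at least 4.42-fold in Smad4 (Stella) and at least 5.32-fold in DKO ovaries. These bounds set the ovaries against the lowest signal well above background on the testis arrays. With normexp correction the difference between testes and control ovaries was -0.22 and the call was lost (limma, adjusted p = 0.889).

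Between the ovary groups Foxl2 was highest in the DKO, and the groups overlapped. The mean in DKO ovaries was 0.42 ± 0.17 above that of control ovaries on the log2 scale, 1.34-fold, with a 95% interval of 0.051 to 0.79. The unadjusted p was 0.0295 and the adjusted p 0.10 (limma), and the call was not made. With each array left out in turn the adjusted p lay between 0.0432, without control ovary 2, where the log2 difference was 0.57 and under 1.5-fold, and 0.252. Within slide 2, which held 2 arrays of each group, the difference was 0.25. With normexp correction it was 0.74 over all arrays, 1.67-fold, and was not called (limma, adjusted p = 0.485). Against Smad4 (Stella) ovaries Foxl2 was then 0.78 higher in the DKO, 1.72-fold, and was not called either (limma, adjusted p = 0.487).

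Irx3, a homeobox gene of supporting cells, varied most among replicates. Its relative level was -2.52, -1.37 and -1.23 for control, -2.09, -2.04 and -2.59 for Smad4 (Stella) and -1.64, -1.08 and -2.05 for DKO ovaries, against -5.19, -5.54 and -5.52 for testes. Control ovary 1 was far below the other control ovaries, and the ovary groups overlapped. Irx3 was 13.1-fold lower in control testes than in control ovaries (limma, adjusted p = 1.14e-05), where its probe was well above background on 2 of 3 testis arrays, and 2.61-fold lower with normexp correction. The log2 difference between Smad4 (Stella) and control ovaries was -0.53 ± 0.34 (limma, adjusted p = 0.401), and -0.94 without control ovary 1 (adjusted p = 0.105). With all arrays the interval allowed a 2.45-fold fall, the widest margin of the 9 genes between Smad4 (Stella) and control ovaries.

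NR0B1, also called DAX1, is an orphan nuclear receptor that represses transcription and is expressed in somatic cells of both gonads. Its relative level was 2.10, 1.97 and 2.08 for control, 2.12, 2.46 and 2.40 for Smad4 (Stella) and 2.40, 2.38 and 2.37 for DKO ovaries, against 0.94, 0.56 and 0.37 for testes. Both mutant groups lay above every control ovary. Arrays that did not overlap were found for 28.1% of all genes between Smad4 (Stella) and control ovaries and for 32.8% between DKO and control ovaries. Nr0b1 was 1.26-fold higher in DKO than in control ovaries with an unadjusted p of 0.0430 and an adjusted p of 0.131 (limma), so that the call was not made. It was 2.69-fold lower in control testes than in control ovaries (limma, adjusted p = 2.11e-05).

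RUNX1 is a transcription factor that acts with FOXL2 in maintaining ovarian supporting cells. As the mean of its probes, Runx1 was -2.54, -2.08 and -2.09 for control, -2.26, -2.40 and -2.44 for Smad4 (Stella) and -2.12, -2.09 and -2.43 for DKO ovaries, against -4.88, -5.29 and -5.45 for testes. The difference between testes and control ovaries was -2.97 ± 0.18 on the log2 scale (limma, adjusted p = 6.16e-07), of which no fold is given since 1 of the 2 probes was not well above background in testes. With normexp correction the difference of this mean was -0.87 and was not called (limma, adjusted p = 0.126).

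The probes behind this mean disagreed. The probe at chr16:92604413-92604472, annotated to 4 RefSeq transcripts, was -1.47, -1.22 and -0.84 for control ovaries and -6.43, -6.62 and -6.96 for testes, where no array was well above background. It was at least 25.2-fold lower in testes than in control ovaries (limma, adjusted p = 2.55e-08).

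The junction probe of Runx1 printed above, annotated to 2 RefSeq transcripts, was -3.61, -2.94 and -3.34 for control ovaries and -3.32, -3.95 and -3.93 for testes, above background on all 12 arrays. Those groups overlapped, with a log2 difference of -0.44 ± 0.25 (limma, adjusted p = 0.183). Neither probe passed the test between the ovary groups. Runx1 is therefore reported as lower in testes by 1 of its 2 probes, and the difference between the probes themselves was not tested.

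**Figure D2:**
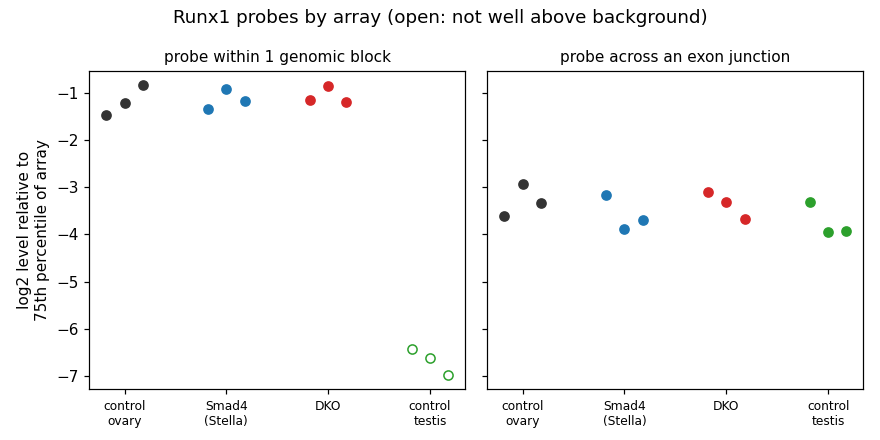
Relative log2 level (vertical axis) of each Runx1 probe on each array of the 4 groups, with open circles for arrays on which the probe was not well above background. On the left, the probe that lies in 1 genomic block drops from at least -1.47 in control ovaries to at most -6.43 in control testes, and on the right the probe across an exon junction keeps overlapping levels.

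Set side by side, each of the ovary groups stood above control testes by a similar margin. All 9 genes were called higher in Smad4 (Stella) ovaries than in control testes, where 14.7% of all genes were called higher, 16.2% lower and 30.9% in either direction. All 9 were also called higher in DKO ovaries, where the background was 12.7% higher, 13.0% lower and 25.7% in either direction. No gene of the 9 overlapped between either mutant group and testes, as was so for 63.8% of all genes with Smad4 (Stella) and 50.5% with DKO ovaries. Runx1 is again the mean of its probes, and its junction probe alone overlapped and was not called in either comparison. The 3 comparisons share the same control testes, which lay on a slide without any mutant ovary. With normexp correction 6 of 9 were called in Smad4 (Stella) ovaries, where 11.7% of all genes were, and 7 of 9 in DKO ovaries, where 8.31% were, without Foxl2 and Runx1 in both and without Irx3 in the former. On the log2 scale the difference from testes ran from 1.11 for Wnt4 to 6.44 for Fst in control ovaries, from 1.47 for Wnt4 to 6.35 for Fst in Smad4 (Stella) ovaries and from 1.28 for Wnt4 to 6.24 for Fst in DKO ovaries.

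**Figure D3:**
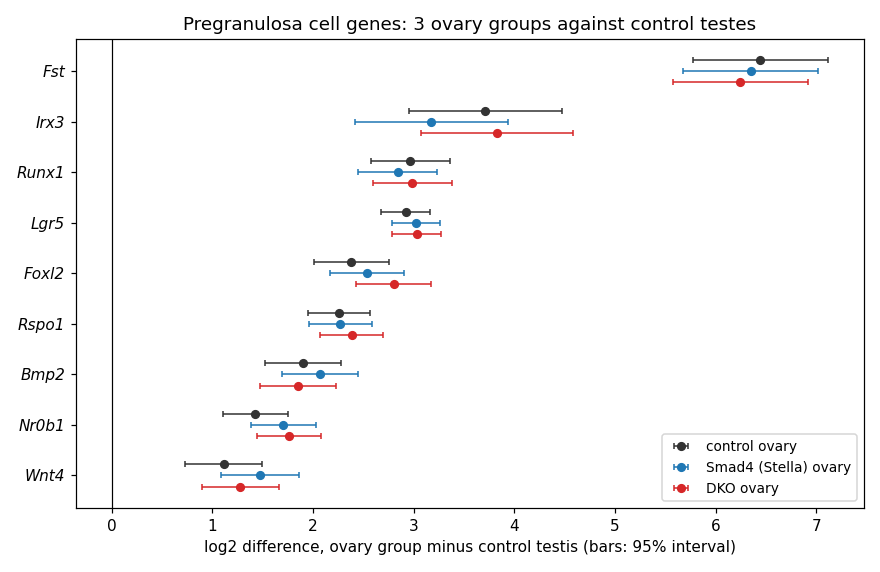
Log2 difference of each gene between an ovary group and control testes (horizontal axis), with 95% intervals, for control, Smad4 (Stella) and DKO ovaries. The values of Foxl2, Runx1 and, on control testis 3, Irx3 include testis signals not well above background. Every interval lies above 0, and for each gene the intervals of the 3 ovary groups overlap.

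The order of the group means differed from gene to gene. DKO ovaries had the highest mean for Foxl2, Nr0b1, Rspo1, Irx3, Runx1 and Lgr5, Smad4 (Stella) ovaries for Wnt4 and Bmp2, and control ovaries for Fst, but no neighbours in these orders passed the test except ovaries against testes. Of the 9 genes, 6 were higher and 3 lower in Smad4 (Stella) than in control ovaries, with a median log2 difference of 0.10 beside -0.025 over all genes. In DKO ovaries 7 were higher and 2 lower than in control ovaries, with a median of 0.12 beside 0.0036 over all genes.

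An unadjusted p under 0.05 was found for 0 of 9 genes in Smad4 (Stella) against control ovaries, where 19.7% of all genes had one. It was found for 2 of 9 in DKO against control ovaries, where 34.3% of all genes had one, and for 0 of 9 in DKO against Smad4 (Stella) ovaries, where 26.4% had one. In the last comparison none of the 9 but 31.2% of all genes had arrays that did not overlap. These counts do not show that levels were equal. The 95% intervals allowed a fall of up to 2.45-fold and a rise of up to 1.68-fold in Smad4 (Stella) against control ovaries. For DKO against control ovaries the limits were a 1.82-fold fall and a 1.84-fold rise. The widest was the rise from Smad4 (Stella) to DKO ovaries, 2.66-fold, which was that of Irx3, whose log2 difference was 0.65 ± 0.34 (limma, adjusted p = 0.262).

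**Figure D4:**
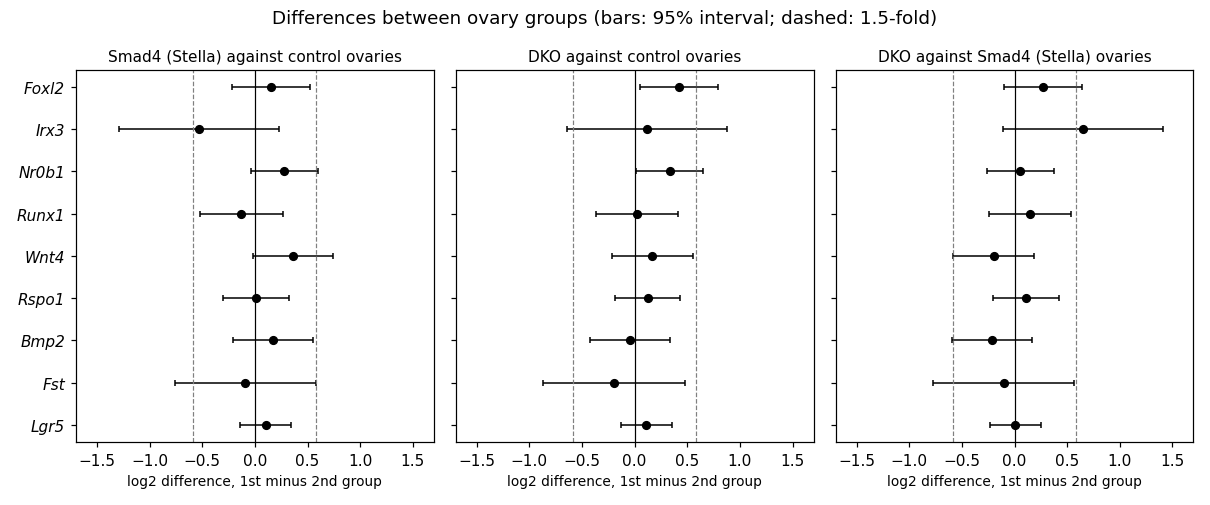
Log2 difference of each gene (horizontal axis) between ovary groups, with 95% intervals and dashed lines at 1.5-fold. Only the intervals of Foxl2 and Nr0b1 in DKO against control ovaries leave out 0, and every mean except that of Irx3 in DKO against Smad4 (Stella) ovaries lies between the dashed lines.

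Differences were also taken within slides. On slide 1 all 9 genes were lower in control testes than in control ovary 1, by -6.14 to -1.05 on the log2 scale. On slide 2 the DKO ovaries differed from the control ovaries by -0.32 to 0.37, with 5 genes higher and 4 lower, and on slide 3 DKO ovary 3 differed from the Smad4 (Stella) ovaries by -0.36 to 0.36. No slide held both Smad4 (Stella) and control ovaries, and none held control testes with either mutant group.

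Genes that share the pathways of these 9 were listed by name, and their differences were read beside them. The counts of this and the later lists stand beside the shares called over all genes. These were 17.2% higher and 16.8% lower in control testes than in control ovaries. In DKO ovaries they were 6.69% higher and 7.98% lower against control, and 4.38% higher and 4.06% lower against Smad4 (Stella) ovaries. Of 19 genes of the WNT and R-spondin pathway that could be tested, 10 were lower and 1 was higher in control testes than in control ovaries, with a median log2 difference of -0.62 beside 0.018 over all genes. Of targets that β-catenin switches on and that serve as readouts of the pathway, Sp5 fell by 3.18, Axin2 fell by 1.88 and Notum fell by 1.79 on the log2 scale. Notum was not well above background on every control testis array. Rnf43, the gene of a ligase that removes WNT receptors, fell by 2.91. Dkk3, a secreted protein of the Dickkopf family, rose by 1.18.

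In DKO against control ovaries 3 genes of this list were higher and 1 was lower, with a median of -0.0098. Sp5 rose by 0.82 ± 0.19, Dkk3 by 0.72 ± 0.20 and the transcription factor gene Tcf7 by 0.70 ± 0.19, while the co-receptor gene Lrp6 fell by 1.20 ± 0.15 (limma, adjusted p = 0.000320). Axin2 differed by -0.0098 ± 0.15 in DKO and by -0.74 ± 0.15 in Smad4 (Stella) against control ovaries, the latter with an unadjusted p of 0.000630 and an adjusted p of 0.0760 (limma), with arrays that did not overlap. Between DKO and Smad4 (Stella) ovaries Axin2 was called higher in the DKO, by 0.73 ± 0.15 (limma, adjusted p = 0.0127), and Lrp6 was called lower. With normexp correction, or with no scaling between arrays, none of the list was called in DKO against control ovaries, and in Smad4 (Stella) against control ovaries none was called. For DKO against Smad4 (Stella) ovaries the list was not counted under these settings. Calls over all genes there fell from 1592 to 222 with normexp correction and to 525 with no scaling.

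Genes of the BMP and activin list were called in both directions between the sexes. Of 20 genes 5 were higher and 5 lower in control testes than in control ovaries, with a median of 0.072. Over all genes 17.2% were called higher and 16.8% lower there. The inhibin and activin subunit genes Inhba, Inha and Inhbb rose in testes by 5.31, 4.08 and 1.96 on the log2 scale, whereas the BMP receptor gene Bmpr1b fell by 1.54. Grem1, a secreted BMP antagonist, was at least 2.36-fold higher in testes. In DKO ovaries Bmp7 was the gene of this list that was called, at 0.64 ± 0.13 above control ovaries (limma, adjusted p = 0.00558). It was not called with normexp correction, with no scaling between arrays, by the brightest probe of a gene or in a model of these groups alone.

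Of 12 other genes of the granulosa lineage 8 were lower and 2 higher in control testes than in control ovaries, with a median of -1.13. Among these Gng13 fell by 4.39, Msx1 fell by 3.91 and Irx5 fell by 3.35 in log2 units. Irx5 was not well above background on every control testis array. The genes that rose do not follow the name of the list at this stage: Hsd17b1, a steroid dehydrogenase gene of adult granulosa cells, rose by 6.62, and Esr2, an oestrogen receptor gene, was at least 2.58-fold higher in testes. In DKO ovaries Irx1 rose by 3.48 ± 0.48 and Hhex by 0.95 ± 0.19, and Msx1 fell by 0.89 ± 0.25 on the log2 scale. With normexp correction, or with no scaling between arrays, 1 gene of this list was called in this comparison. Only the count was kept, so which of these changes held, and whether it was the same under both settings, is not given.

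Transcription factor genes of the somatic gonad of both sexes were called higher in testes for 6 and lower for 2 of 10. Emx2 fell by 1.74 and Wt1 fell by 1.19 on the log2 scale, while Nr5a1 rose by 1.47. In DKO ovaries 3 of 10 were higher than in control ovaries, among them Six4 by 0.96 ± 0.23 and Cbx2 by 0.69 ± 0.15 on the log2 scale, and none was lower. With normexp correction 0 of these were called, and with no scaling 1. Six4 was not well above background on every control ovary array. None of the list was called in Smad4 (Stella) against control ovaries.

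**Figure D5:**
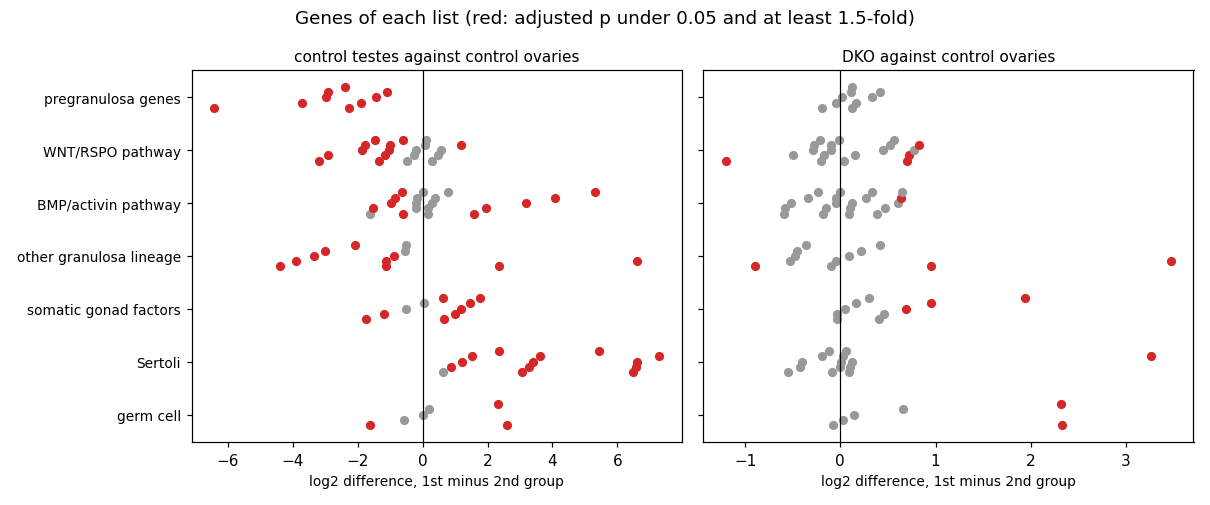
Log2 difference (horizontal axis) of each gene of 7 lists (rows), in control testes against control ovaries on the left and in DKO against control ovaries on the right, with called genes in red. The 9 pregranulosa cell genes are all red and below 0 on the left and all grey on the right, where the red points belong to other lists.

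Sertoli cell markers were high in testes, and against control ovaries Dmrt1 was the marker called in the DKO. Of 14 markers 13 were higher in control testes, among them Cst9 by 7.30, Dhh by 6.62, Amh by 6.59 and Ptgds by 6.49 on the log2 scale, and Sox9, the gene of the transcription factor that directs Sertoli cell differentiation, by 3.06. The mean level of the 14 ranged from -2.82 to -2.59 in control ovaries, from -2.80 to -2.59 in Smad4 (Stella) ovaries, from -2.67 to -2.46 in DKO ovaries and from 0.96 to 1.15 in control testes. In DKO ovaries 1 of 14 was called, Dmrt1, which rose by 3.27 ± 0.41 and which germ cells also express, while Sox9 differed from control ovaries by -0.090 ± 0.23 and Amh by 0.064 ± 0.19. Between DKO and Smad4 (Stella) ovaries 2 of 14 were called higher in the DKO, Dmrt1 and Amh. Dmrt1 rose by 1.61 ± 0.41 on the log2 scale, and Amh had an adjusted p of 0.0127 (limma). No fold is given for Amh here, since most of its signals in both groups were not well above background. For this comparison the list was not counted under other processing. The Amh probe was well above background on 1 of 3 DKO arrays, 1 of 3 control ovary arrays and 0 of 3 Smad4 (Stella) arrays. Between Smad4 (Stella) and control ovaries the log2 difference of Amh was -0.85 and was not called (limma, adjusted p = 0.0788). Most signals behind this difference were not well above background. Sox8, Sox10 and Amh were not well above background on all arrays of any ovary group.

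Markers of other cells of the gonad were read beside these differences, and their part in them was not tested. In control testes all 4 fetal Leydig cell markers tested and 5 of 6 interstitial markers were higher than in control ovaries, and 3 of 5 surface epithelium markers were lower. In DKO ovaries 2 of 6 germ cell markers, Dppa3 by 2.33 and Pou5f1 by 2.32, were higher than in control ovaries on the log2 scale, while Ddx4 and Dazl differed by 0.14 and -0.081. The mean level of the 6 ranged from 1.78 to 2.78 in control ovaries and averaged 3.10 in DKO ovaries. Also called in DKO ovaries were Ptch1 of 6 interstitial markers (by 1.05), Lhx1 of 4 mesonephric markers (by 1.54), Cd68 of 5 macrophage markers (by 0.72) and Msln of 5 surface epithelium markers (by 0.59), all higher, while 2 of 5 erythroid markers were lower, among them Hbb-y by -1.15. Ptch1 and Hbb-y were not well above background on every control ovary array. Calls over all genes in DKO against control ovaries fell from 2764 to 913 with normexp correction and to 1000 with no scaling. Which calls of these markers and of Dmrt1 held under those settings is not given. None of 5 endothelial and 4 fetal Leydig cell markers was called in DKO ovaries, and no marker of any of these lists was called in Smad4 (Stella) against control ovaries.

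Across the 12 arrays the levels of the 9 genes ran together, with Pearson correlations with Foxl2 between 0.94 for Wnt4 and 0.99 for Lgr5. These describe arrays that fall into ovaries and testes, and so restate the sex difference. The genes outside the set whose levels over the 12 arrays were most like those of Foxl2 were Abca4 (r = 0.993), Ryr2 (0.991), Bmpr1b (0.991), Tnfrsf19 (0.988) and Nudt18 (0.986). Most like the mean of the 9 genes, each scaled to unit variance, were Lrrn1 (r = 0.994), Cntn4, Wt1os, Zbtb7c, Tnfrsf19, Xist, Sulf1, Tmem132c, 6330403A02Rik and Krt33a (0.992). Xist, the RNA that coats the inactive X chromosome, separates XX from XY gonads by itself, at mean levels of 0.25 in control ovaries and -6.89 in control testes.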

How the data were processed

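RNA of 12 gonad samples was measured on single-colour arrays, with 1 array per sample, in 4 groups taken from the labels. The authors deposited Feature Extraction 11.0.1.1 output, in which each spot's processed intensity is already background-subtracted, and a separate table of spot values equal to it within 0.497%, without scaling between arrays. From the former, log2 intensity minus each array's 75th percentile over non-control spots was computed. Outlier spots were dropped and spots of a probe averaged. A probe stayed in if every array in 1 or more groups showed it well above background (27311 of 41174 probes, 18844 genes, all 9 of the set). Probes of a gene were averaged, and RefSeq accessions named 27042 probes.

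Groups were compared with limma 3.58.1 (R 4.3.3, with the data.table package, version 1.17.8) in 1 model over 12 arrays, with Benjamini-Hochberg adjustment over all genes. Precision is limited by having 3 arrays per group, and 0 spots were saturated. An exact permutation test of 3 arrays against 3 cannot go below p = 0.1 and was not used. Where a group had no array with a gene well above background, a bound is given for a called fold. Amh between DKO and Smad4 (Stella) ovaries has none, since the DKO signals were mostly dim as well. The model was tested on simulated data.

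The 9 genes and the 13 lists of pathway genes and markers were chosen with earlier results of these data known. Genes named beside the 9 were Stra8, Smad4, Sox9, Amh, Ddx4 and Dazl, up to 4 called genes of largest change per list and comparison, and those most like Foxl2 or the set. Dkk3, Bmpr1b, Esr2, Wt1 and Nr5a1 in testes, and Axin2 in DKO ovaries, were named after their values were seen. Alternatives were quantile normalization, the deposited table without scaling, normexp, the brightest probe of a gene, all probes unfiltered, a block for slide or for replicate number, fits to the compared groups alone, a call without the fold threshold, the methods' t-test, and omission of single arrays. Leaving out control ovary 1 and DKO ovary 1 together, and the t-test with the fold threshold, were added after seeing the data. Some genes of the lists are not reported here.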

Additional observations from a re-analysis of the deposited data

How the results depend on the processing

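The 9 calls between control testes and control ovaries, and the absence of calls between ovary groups, held under each alternative except normexp, which gave 7 calls in testes against control ovaries, and the methods' t-test. The t-test, run with no fold threshold, gave 1 gene in DKO against control ovaries, Nr0b1, both unadjusted and after Benjamini-Hochberg adjustment. With the 1.5-fold threshold, added after seeing the data, it gave 0 both ways. Small differences between ovary groups that were not called changed sign under some settings. No slide held both Smad4 (Stella) and control ovaries, so the slide block compares them only by way of DKO ovary 3. Any value or count for those groups with the slide block therefore rests on that array. Leaving out the scaling moved the median of all genes by 0.43 in Smad4 (Stella) and 0.18 in DKO against control ovaries and by -0.24 in DKO against Smad4 (Stella) ovaries, and normexp moved it by -0.046, 0.26 and 0.26, so that signs without scaling are not relative to the other genes. In Smad4 (Stella) against control ovaries the log2 difference of Foxl2 was -0.045 with normexp and -0.11 with the slide as a block, that of Runx1 0.30 without scaling, 0.024 by its brightest probe and 0.048 with the slide block, that of Fst 0.34 without scaling and that of Lgr5 -0.018 with the slide block. In DKO against control ovaries Irx3 was -0.056 with the slide block and -0.26 without control ovary 1 and DKO ovary 1, Runx1 -0.022 and -0.18 likewise, Bmp2 0.14 without scaling and 0.23 with normexp, and Lgr5 -0.035 with normexp. In DKO against Smad4 (Stella) ovaries, first without scaling and then with normexp, Nr0b1 was -0.19 and -0.12, Rspo1 -0.13 and -0.066, and Lgr5 -0.24 and -0.10. There Runx1 was -0.096 without scaling and -0.070 with the slide block, Bmp2 0.16 with normexp, and Fst 0.16 without control ovary 1 and DKO ovary 1. With each array left out in turn, signs changed for Rspo1 (-0.053 to 0.12) and Fst (-0.34 to 0.069) in Smad4 (Stella) against control ovaries. In DKO against control ovaries they changed for Irx3 (-0.29 to 0.35), Runx1 (-0.13 to 0.13), Bmp2 (-0.22 to 0.12) and Fst (-0.48 to 0.066), and in DKO against Smad4 (Stella) ovaries for Nr0b1 (-0.049 to 0.12), Fst (-0.39 to 0.16) and Lgr5 (-0.077 to 0.080).

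Counts over all genes moved more. Calls in Smad4 (Stella) against control ovaries numbered 51, but 14 without scaling, 2 with normexp, 13 with the slide block, 9 with those groups alone and 2 without the filter on dim probes. The t-test with no fold threshold gave 3406 there unadjusted and 2 after adjustment. With each array left out in turn this count lay between 0 without Smad4 (Stella) ovary 3 and 238 without DKO ovary 1, with 3 without control ovary 2, 12 and 22 without Smad4 (Stella) ovaries 1 and 2, and 13 to 16 without a control testis. In DKO against control ovaries they numbered 2764, but 1000 without scaling, 913 with normexp, 4226 without the fold threshold and, by the adjusted t-test, 1359 without and 1094 with the fold threshold, and in testes against control ovaries 6399, but 3727 and 2667. In DKO against Smad4 (Stella) ovaries 1592 became 525 without scaling, of which 112 were higher, and 935 with the slide block, of which 221 were higher, 222 with normexp and, by the adjusted t-test, 105 without and 83 with the fold threshold. Leaving out Smad4 (Stella) ovary 2 gave 869, and leaving out ovary 3 of that group gave 996. Replicate numbers were not taken to pair the samples. The deviations of same-numbered arrays correlated with r between -0.18 and 0.15. This does not settle whether they were paired, since arrays of different numbers were not compared. With the replicate block 9 of the genes were still called in testes against control ovaries and 0 between ovary groups, while 4 of all genes were called in Smad4 (Stella) against control ovaries. Dim signals such as that of Foxl2 in testes give only bounds.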
